A study of Homo sapiens with 2 samples.

Results

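The expression of 10 genes of nucleolar ribosome biogenesis was examined in A549-NICD1 and A549-Vector cells. They are BOP1, PES1 and WDR12, whose products form the PeBoW complex, together with NOP2, NOP56, NOP58, FBL, NCL, NPM1 and DKC1. The set was chosen by the higher value of BOP1 in A549-NICD1, and the other genes were named as its partners or as nucleolar factors to see whether they shared that rise, so the value of BOP1 is given as a description only. All 10 were found among the 19198 genes of the deposited values, and all 10 were among the 15141 genes that reached 0.1 FPKM in either library. FPKM is a read count divided by the length of the gene and by the depth of the library.

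The cultures are labelled A549, a human lung adenocarcinoma line that the authors use as a model of non-small-cell lung cancer. One culture overexpressed NICD1, the intracellular part of NOTCH1 that enters the nucleus after receptor cleavage, and the control culture, A549-Vector, carried the vector. The methods describe NICD1 in the lentiviral vector pSin-EF2 and stable lines obtained by antibiotic selection, and whether a line was a pool or a clone is not given in the sources used here. Polyadenylated RNA of each culture was sequenced as 1 library, which leaves every difference without a replicate check, and no p-value is given. The values rest on a depth of 48528434 reads for A549-NICD1 and of 48602848 for the control. NOTCH1 was at 5.40 FPKM in the control and at 2865 FPKM with NICD1, in the direction of the labels. RFC4, a replication factor C subunit and the gene of highest level with NICD1, was at 39.5 and 4075 FPKM. Among 12 A549 marker genes, 4 reached 1 FPKM in the control and 3 with NICD1, and KRT7, FGA and FGB were listed at 0 in both. KRT8 and KRT18, keratins of that list, had log2 ratios of NICD1 over control of 1.09 and 0.89. All 6 marker genes of the embryonic kidney line HEK293 reached 1 FPKM in both libraries. CDKN2A was at 139 FPKM in the control and 138 FPKM with NICD1, and NEFL at 33.5 and 31.9 FPKM. SOX11 was lowest in the control, at 1.68 FPKM. Of the A549 list, AKR1C1 was at 1.15 and 0.553 FPKM and AKR1B10 at 0.0258 and 0.0129 FPKM. KRT8 was at 85.9 and 176 FPKM. The HEK293 list was thus detected in full and the A549 list in part. These markers do not bear out the name A549, which is kept only as the submitters' label. The methods state that all lines were authenticated by short tandem repeats. The part of cell identity in the values below was not tested.

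Ribosomes are assembled in the nucleolus, where RNA polymerase I transcribes the ribosomal RNA precursor and a large set of proteins cuts, modifies and folds it. The PeBoW complex is needed for maturation of the large subunit, and BOP1 holds its PES1 and WDR12 partners together. Small nucleolar ribonucleoproteins (snoRNPs) modify the precursor, those with box C/D RNAs by methylation of ribose and those with box H/ACA RNAs by conversion of uridine to pseudouridine. Genes of this pathway are often high in growing cells, and many are known targets of MYC, which binds the E-box CACGTG.

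The promoters of these genes were searched on both strands for the E-box CACGTG and for GTGGGAA, the core letters bound by RBPJ, the DNA-binding partner of NICD1. The RefSeq promoters (GRCh38.p14, 300 bases around each start site) held 9 entries for 8 of the 10 genes, namely PES1, WDR12, NOP2, NOP56, FBL, NCL, NPM1 and DKC1. BOP1 and NOP58 had no entry, so their promoters were not searched. None of the 8 genes with an entry held GTGGGAA, which occurred in 6.25% of all 35116 promoters. CACGTG occurred in 3 of the 8, in PES1, NOP2 and FBL, and in 7.26% of all promoters. These percentages count promoter entries, and a gene can have several, so they are not on the scale of the gene counts. Among genes past the filter with an entry, 1395 held CACGTG and 10228 did not. For GTGGGAA these numbers were 917 and 10706. The 3 sites are printed 5′ to 3′ on the strand of the gene because they are the only matches in the set, with the E-box in capitals. They begin 14, 36 and 7 bases into the transcribed part, counted from 1 at the start site, and lie at chr22:30591880-30591909, chr12:6568242-6568268 and chr19:39846356-39846385, all on the minus strand.
PES1: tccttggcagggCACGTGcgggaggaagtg
NOP2: aggtccggattgCACGTGgagggccgc
FBL: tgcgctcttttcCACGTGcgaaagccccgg
These matches are descriptions of the letters, and binding was not measured. Among genes past the filter, the median log2 ratio was 0.020 for the 1395 with CACGTG in a promoter and 0.00040 for the 10228 without.

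BOP1 rose to 13.3 FPKM with NICD1 from 1.24 FPKM in the control. After scaling of the libraries this was a log2 ratio of 3.38 on FPKM plus 0.1, a fold of 10.4. It rested on at least 1329 reads with NICD1 and 124 in the control. The 95% Clopper-Pearson interval of the ratio of reads, which has no added constant, ran from 3.22 to 3.76 on the log2 scale and covers counting error only. By log2 ratio BOP1 ranked 12 among the 15141 genes, of which 0.0925% lay above 3. Its level ranked 11993 of 19198 in the control and 5876 with NICD1.

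**Figure D1:**
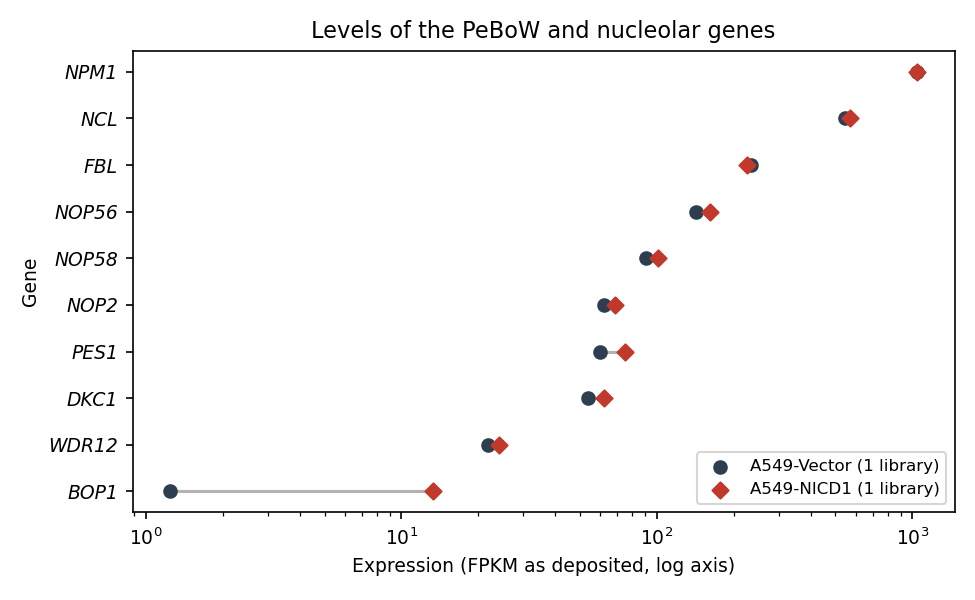
Expression of the 10 genes in FPKM as deposited (log axis), with 1 library per condition; circles are A549-Vector and diamonds A549-NICD1. BOP1 moves from 1.24 to 13.3 FPKM and is the lowest gene in both libraries, whereas the symbols of the other 9 genes lie close together.

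The other subunits of the complex had smaller ratios. PES1, the pescadillo protein of large-subunit precursors, was at 59.9 FPKM in the control and 75.0 FPKM with NICD1. Its log2 ratio of 0.38, a fold of 1.30, was the largest of the 9 other genes (counting interval 0.34 to 0.43). WDR12, the WD-repeat subunit, was at 21.9 and 24.1 FPKM, a log2 ratio of 0.20 (interval 0.12 to 0.28).

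Levels within the complex were unequal, on the FPKM scale that divides by gene length. In A549-Vector PES1 was at 48.3 times and WDR12 at 17.7 times the level of BOP1. With NICD1 these ratios were 5.63 and 1.81. The ratio of PES1 to WDR12 was 2.74 in the control and 3.11 with NICD1. BOP1 was the lowest of the subunits in both libraries. The gene model behind these values is not known, since the smallest length that gives whole reads for BOP1, 2055 bases, equals no GENCODE 29 transcript. What the low control level of BOP1 reflects was not tested, and this bears on its ratios to its partners and on its fold of 10.4.

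NOP2, which methylates a cytosine of the large-subunit ribosomal RNA, was at 61.9 FPKM in the control and 68.4 FPKM with NICD1, a log2 ratio of 0.20 (interval 0.16 to 0.25). Of its 59 windows of 100 bases, 49 also occur in the GENCODE gene AC006064.6. How the counting treated reads shared with that gene is not known, so the level of NOP2 is uncertain.

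The core genes of box C/D snoRNPs had unequal ratios. NOP56 was at 142 FPKM in the control and 162 FPKM with NICD1, a log2 ratio of 0.24 (interval 0.21 to 0.28). NOP58, its paralog on the same RNA, was at 90.4 and 101 FPKM, a log2 ratio of 0.22 (interval 0.18 to 0.26). The level of NOP56 over NOP58 was 1.57 in the control and 1.60 with NICD1. FBL, the methyltransferase fibrillarin, was at 234 FPKM in the control and 225 FPKM with NICD1, and its log2 ratio of 0.0028 had an interval from -0.03 to 0.04. FBL was the 1 gene of the 10 whose interval held 0, and its interval lay below those of NOP56 and NOP58. DKC1, the pseudouridine synthase dyskerin of box H/ACA snoRNPs, was at 53.6 FPKM in the control and 61.9 FPKM with NICD1, a log2 ratio of 0.26 (interval 0.22 to 0.31).

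The genes of highest level among the 10 were NPM1 and NCL. NCL, or nucleolin, which binds the ribosomal RNA precursor, was at 547 FPKM in the control and 569 FPKM with NICD1, a log2 ratio of 0.12 (interval 0.10 to 0.13). NPM1, or nucleophosmin, a chaperone of the outer nucleolus, was at 1047 and 1045 FPKM, and its log2 ratio after scaling was 0.06 (interval 0.04 to 0.07). NPM1 ranked 23 by level in both libraries. Of its 34 windows, 7 also occur in 5 other GENCODE genes, 4 of which include pseudogene transcripts. Without scaling, FBL and NPM1 lay below 0, at -0.06 and -0.0028.

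**Figure D2:**
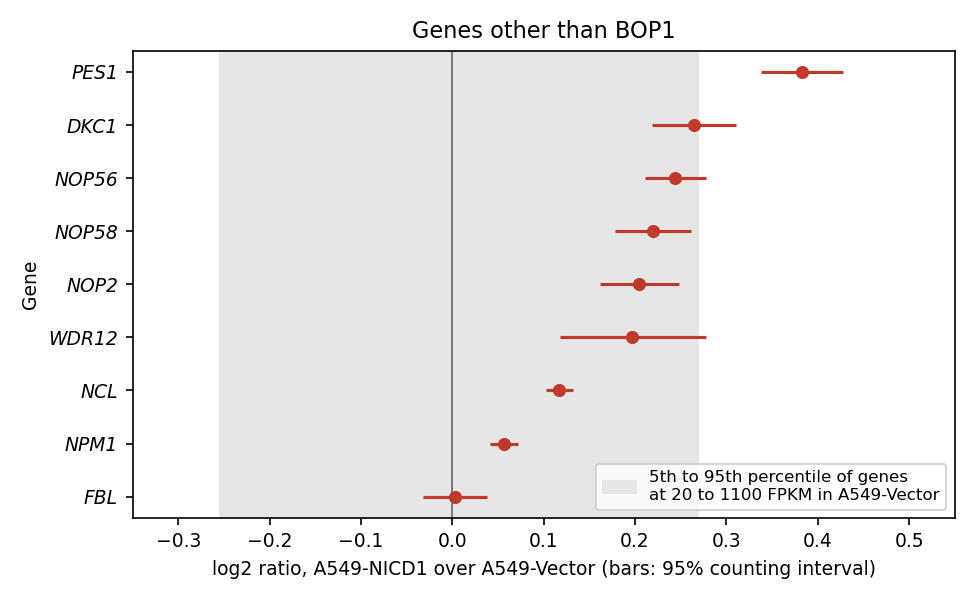
The log2 ratio of A549-NICD1 over A549-Vector for the 9 genes other than BOP1, with 95% counting intervals as bars; grey marks the middle 90% of the 4314 genes at 20 to 1100 FPKM in A549-Vector. PES1 lies beyond the grey range at 0.38, and the interval of FBL holds 0.

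Counted over the set, 1 of the 10 genes was above a log2 ratio of 1, against 2.42% of all genes past the filter, and none was below -1, against 0.944%. This count includes BOP1, which chose the set. All 10 were above 0, against 50.4% of all genes, and FBL, NPM1 or both changed sign under other scalings. The counting interval was wholly above 0 for 9 of 10, against 27.5% of all genes, and wholly below 0 for none, against 26.6%. High genes have narrow intervals, and among the 4314 genes at 20 to 1100 FPKM in A549-Vector 38.9% had an interval wholly above 0 and 56.4% a log2 ratio above 0. The middle 90% of these genes ran from -0.25 to 0.27. The median of the 9 genes other than BOP1 was 0.20 and that of the 4314 genes 0.02. PES1 was the 1 gene of the 9 above that range, and 72 of the 4314 genes, or 1.67%, had a higher ratio.

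A small difference in the same direction was present across the wider machinery. A total of 113 further nucleolar genes in 7 lists were examined, of which 112 were found and tested, POLR1G being the gene not matched. Of these 112, 106 had a log2 ratio above 0, against 50.4% of all genes and 56.4% of those at 20 to 1100 FPKM in the control. None was past 1 in either direction, against 2.42% of all genes above 1 and 0.944% below -1. Their median was 0.17, with a range from -0.19 to 0.53, and 90 had a counting interval wholly above 0 and 2 wholly below, against 27.5% and 26.6% of all genes and, for those above 0, 38.9% of genes at 20 to 1100 FPKM. Without scaling, 94 of the 112 were above 0, against 39.6% of all genes. Some of the 112 lay below 20 FPKM in the control, such as UTP15 at 8.96 FPKM and TAF1A at 3.65 FPKM. The shares of genes at 20 to 1100 FPKM are thus not matched to the level of the 112. The lists were written with earlier results of these data known.

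**Figure D3:**
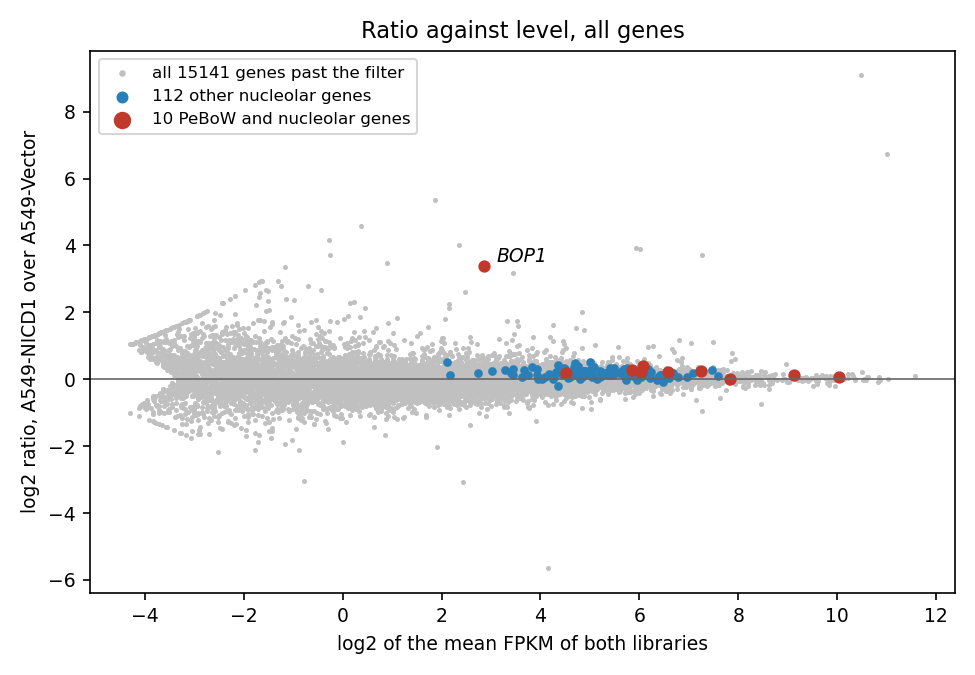
The log2 ratio against the log2 mean FPKM of both libraries for all 15141 genes past the filter (grey), the 112 other nucleolar genes (blue) and the 10 genes described here (red). BOP1 lies at 3.38 among the 14 genes above 3, apart from the other nucleolar genes, which form a band between -0.19 and 0.53 with most points just above 0.

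Of 45 genes for large-subunit assembly, the step in which PeBoW acts, 43 were above 0, against 50.4% of all genes, with a median of 0.18. NMD3, the export adaptor of the large subunit, was highest at 18.0 FPKM in the control and 23.1 FPKM with NICD1, a log2 ratio of 0.41. MDN1, the giant ATPase that strips assembly factors from the large subunit, was lowest at 22.4 and 18.8 FPKM, a log2 ratio of -0.19 (interval -0.24 to -0.15). MDN1 and WDR18 were the genes of this list below 0, the latter at -0.01.

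In the small subunit processome, which cleaves the precursor on the way to the small subunit, 35 of 37 genes were above 0, against the same 50.4%, with a median of 0.16 that was 0.10 without scaling. UTP14A was highest at 27.0 FPKM in the control and 37.4 FPKM with NICD1, a log2 ratio of 0.53 (interval 0.46 to 0.59), the largest of the 112 genes. IMP3 was lowest at 93.9 and 84.5 FPKM, a log2 ratio of -0.09 (interval -0.15 to -0.04), and NOP14 was the other gene below 0, at -0.01.

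All 14 genes of RNA polymerase I and its factors that were found lay above 0, against 50.4% of all genes. Their median was 0.12, and 0.066 without scaling. TAF1A, a subunit of the promoter selectivity factor, was highest at 3.65 FPKM in the control and 5.01 FPKM with NICD1, a log2 ratio of 0.50. Its interval from 0.10 to 0.94 was wide and rests on a minimum number of reads, which can widen it. TAF1C was lowest at 0.0046.

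The snoRNP lists were small, and their counts also stand against 50.4% of all genes above 0. Of 4 box C/D core genes 3 were above 0, with a median of 0.11 (0.052 without scaling), NOP56 being highest and SNU13 lowest at -0.0095. All 4 box H/ACA genes were above 0, with a median of 0.19. GAR1 was the highest of them at 20.2 FPKM in the control and 24.3 FPKM with NICD1, a log2 ratio of 0.33, and NOP10 the lowest at 0.07. Of 8 snoRNP assembly factors 7 were above 0, with a median of 0.12 (0.061 without scaling), from -0.0064 for ZNHIT3 to 0.26 for ZNHIT6. All 7 nucleolar scaffold genes were above 0, with a median of 0.19, although NPM1 fell below 0 without scaling. The RNA helicase DDX21 was highest there, at 164 FPKM in the control and 188 FPKM with NICD1, a log2 ratio of 0.26, and NPM1 was lowest.

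**Figure D4:**
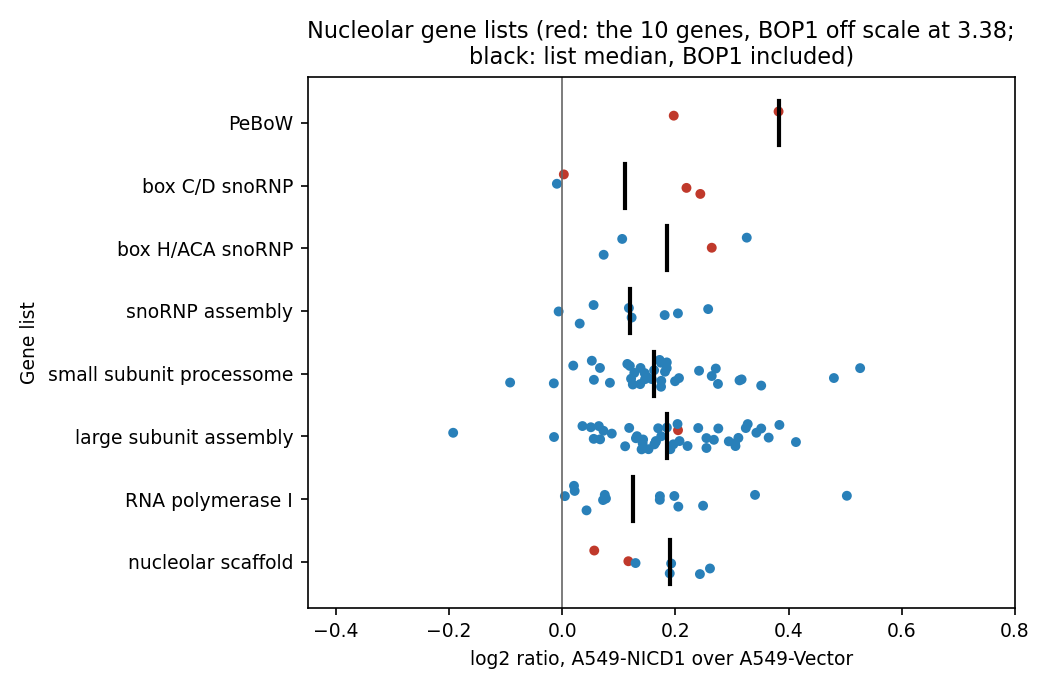
The log2 ratio of every gene in the 8 nucleolar lists, with the vertical jitter carrying no value, red for the 10 genes described here and a black line for each list's median. List medians lie between 0.11 and 0.38, and BOP1, at 3.38, is off the scale.

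MYC, whose product is known to act on many of these genes, was at 77.1 FPKM in the control and 81.2 FPKM with NICD1, a log2 ratio of 0.13 (interval 0.09 to 0.18).

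The genomic surroundings of BOP1 were then read in GENCODE 29 (GRCh38), the build that the submitters name as hg38. BOP1 (ENSG00000261236.7) lies on chromosome 8 from 144262102 to 144291370 on the minus strand. No window of its longest coding transcript, of 45 tested, occurs in another GENCODE gene. SCX, a tendon transcription factor encoded within the span of BOP1 on the plus strand, had 2 reads in the control and 1 with NICD1. The supplement describes the sequencing as strand-specific, and the strand setting used in counting is not given in the sources used here. HSF1, which starts 221 bases from the start of BOP1 and runs the other way, was at 59.8 FPKM in the control and 64.8 FPKM with NICD1, a log2 ratio of 0.17 (interval 0.12 to 0.22). MROH1, whose end lies 162 bases from the end of BOP1, was at 1.89 and 1.94 FPKM, a log2 ratio of 0.09. On FPKM plus 0.1, none of the 5 nearest listed genes on each side passed a log2 ratio of 1, and their median was 0.08. The highest was SCRT1 at 0.97, which had at least 29 reads in the control and 71 with NICD1. Its ratio is pulled toward 0 by the added constant, and its counting interval, which has none, ran from 0.71 to 2.03. The lowest was HGH1 at -0.27.

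Among genes of at least 1 FPKM in A549-Vector, BOP1 ranked 6 of 12295 by log2 ratio. The nearest ratios above it were those of CALCB at 3.71, ANKRD1 at 3.88 and HES5, a Notch target repressor, at 3.92. The nearest below it were MYOM2 at 3.19, NGFR at 2.61 and GADD45G at 2.24. None of these 6 is in the nucleolar lists. With 2 libraries this likeness rests on a single ratio per gene.

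The other 9 loci were read in the same annotation. PES1 lies at chr22:30576625-30607083 (minus strand) and overlaps TCN2, and WDR12 at chr2:202874782-203014798 (minus) overlaps CARF. NOP2 lies at chr12:6556863-6568691 (minus), NOP56 at chr20:2652145-2658393 (plus), NOP58 at chr2:202265716-202303666 (plus) and FBL at chr19:39834458-39846414 (minus). NCL lies at chr2:231453531-231483641 (minus), NPM1 at chr5:171387116-171411137 (plus) and DKC1 at chrX:154762742-154777689 (plus).

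The snoRNA genes inside these loci were a feature that the choice of genes did not use. In GENCODE 29, 4 of the 10 genes held annotated snoRNA genes on the same strand, 14 in all, with 5 in NOP56, 4 in NOP58, 3 in NCL and 2 in DKC1. Of 14847 genes past the filter with a locus in that annotation, 219, or 1.48%, held one. The 219 hosts had a median log2 ratio of 0.02, and 56.6% of them were above 0. The snoRNAs themselves, which lack a polyA tail, were not measured in these libraries.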

How the data were processed

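RNA of 1 A549-NICD1 and 1 A549-Vector culture was sequenced. The submitters' processing notes name Bowtie2, HTSeq and hg38 without versions, and the supplement describes strand-specific sequencing. The annotation and the strand setting in counting are not given in the sources used here. The authors deposited 1 value per gene and library, treated as FPKM, a unit read from the values. Of the deposited rows, 27 carried a date number in place of a gene symbol and were not used. Depths were taken from the deposited values alone, as the whole numbers at which low values gave whole gene lengths. At these depths, reads came out whole for 17176 of 17178 genes above 0, using the smallest length of at least 200 bases. A check took 388 genes whose reads came out whole at these depths within an upper limit of length, which fixed their share at 100.0%. With the depth of A549-NICD1 changed, 0.3% of them still gave whole reads within that limit. Since longer lengths would also give whole reads, reads are minimum numbers. For none of the 10 genes did the smallest length equal a GENCODE 29 transcript. Recovered reads summed to 89.8% and 89.4% of the depths.

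A549-NICD1 values were multiplied by 1.042, from a trimmed mean of log ratios (30% of ratios and 5% of levels trimmed at each end), and log2 ratios taken on FPKM plus 0.1 for genes of at least 0.1 FPKM in a library. This understates the change of low genes. The 95% intervals (Clopper-Pearson, on reads) hold counting error alone, because each condition has 1 library. Where reads carry no molecular identifiers, 1 molecule can give several reads, which would make these intervals too narrow. Reads are minimum numbers, so the intervals of some genes can instead be too wide. Fewer intervals then lie wholly above or below 0. In simulated reads for 17176 genes both depths were found exactly, and 95.7% of 14501 intervals of unchanged genes held 0. The simulated reads varied by counting error alone, the error that these intervals assume, so this share checks the computation only. Variation between cultures was not simulated. Sharing was measured in windows of 100 bases taken every 50 bases.

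The genes, lists, and markers were chosen with earlier results of these data known. Named are the 10 genes, the highest and lowest of each list, any list gene past 1, the neighbours of BOP1, and the 3 nearest ratios on each side of BOP1. NOTCH1 and RFC4 are named as overexpressed or highest gene. MYC, WDR18 and NOP14 were added after their values were seen. Alternatives covered scaling, pseudocount and filter. Protein sequences were not analysed here. Python 3.11.15, numpy 2.4.6, pandas 2.3.3, scipy 1.17.1 and matplotlib 3.10.9 were used.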

Additional observations from a re-analysis of the deposited data

How the results depend on the processing

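No paired analysis was possible because the 2 cultures gave 1 library each, and leaving one out would leave no comparison. Over 24 results and 9 alternative settings, 193 of 216 values counted as unchanged from the reported value. A log2 ratio could differ by up to 0.5 times the width of its counting interval, and a count by a factor of up to 1.5. Medians have no interval of their own and were held to the median of this distance over their genes. BOP1, the only log2 ratio past 1 among these results, kept its direction. FBL, NPM1 or both changed sign in settings given below. BOP1 was at 2.73 with a pseudocount of 1 FPKM, which pulls low genes toward 0. Without scaling, PES1 was at 0.32, DKC1 at 0.20, NOP56 at 0.18, NOP58 at 0.16, NOP2 at 0.15, NCL at 0.058, NPM1 at -0.0028 and FBL at -0.057. The median of the 9 genes other than BOP1 was then 0.15, and list medians were 0.052 for box C/D snoRNPs, 0.061 for snoRNP assembly, 0.066 for RNA polymerase I, 0.10 for the small subunit processome, 0.13 each for box H/ACA snoRNPs, large-subunit assembly and the nucleolar scaffold, and 0.32 for PeBoW. That setting moved the median of all genes to -0.06. Of the 10 genes, 8 were above 0 without scaling, and 9, all but FBL, with no filter or with scaling to genes of 20 to 1100 FPKM. The latter, chosen after seeing the data, gave 0.095 for NCL, 0.034 for NPM1 and 102 of the 112 other nucleolar genes above 0. The number of all genes above 1 and below -1, 367 and 143 in the report, was 46 and 7 with a pseudocount of 1 FPKM, 624 and 310 with 0.01 FPKM, 80 and 26 at a mean of at least 1 FPKM, and 628 and 320 on reads plus 0.5, a setting also chosen after seeing the data. Of the 10 genes, BOP1 had the fewest reads, 124 in the control, and the others had at least 2431 in each library.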
